A study of Mus musculus with 11 samples.

Results

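Tumor-infiltrating regulatory T cells (TI-Tregs) with a Treg-specific deletion of Cd177 were compared with TI-Tregs of control mice. Genes entered the comparison when their log2(n + 1) averaged 0.5 or more across the 5 tumor libraries, as 13528 of the 14604 genes in the deposited values did. All libraries came from mice bearing MC38 tumors, a colon adenocarcinoma line grown as a graft. The 3 control libraries (wild type in the sample titles) carried the genotype CD177flox/flox, so loxP sites flank Cd177 but no Cre is present. The 2 knockout libraries carried CD177flox/flox/FOXP3-CreYFP, in which Cre and a yellow fluorescent protein are made from the Foxp3 locus. Both groups therefore share the floxed allele, and the loss of Cd177 cannot be told apart from the presence of Cre-YFP in Foxp3. The study's methods describe its MC38 hosts in general as young male C57BL/6 mice. Neither they nor the labels give age, sex or the number of animals per library for these genotypes. The p-values below thus measure the spread between libraries, pooled over tumor and spleen unless the tumor libraries alone are named. Tregs of the spleen (3 libraries per genotype) were used to estimate the spread and for a side-by-side comparison. By the study's methods, these spleens belonged to the mice that bore the tumors. The labels do not tie a spleen library to a tumor library, and the fit treated all 11 libraries as independent.

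CD177 is a glycoprotein held at the cell surface by a lipid anchor. It is best known from neutrophils, where it displays proteinase 3, works with the integrin of Itgam and Itgb2, and binds PECAM1 on endothelial cells. FOXP3 is the transcription factor that defines Tregs. Among its main target genes in these cells is Il2ra, which codes for the high-affinity interleukin 2 receptor chain CD25. Cd177 was not among the genes analysed here, so no level of the deleted gene was at hand to check the genotypes. The genes of the sort were present in all 5 tumor libraries, with log2(n + 1) between 7.07 and 7.73 for Cd4. Foxp3, which was not used in the sort, was between 4.72 and 6.12. Macrophage genes were present too, for example Lyz2 between 12.02 and 12.73 and C1qa between 10.10 and 10.55, so the tumor libraries held RNA of other cells beside that of Tregs. The log2 summed level of 20 macrophage and monocyte genes was between 13.88 and 14.46 in tumor and between 8.36 and 9.24 in spleen. In such bulk libraries, fewer cells of a type and less RNA per cell cannot be told apart.

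Of the 13528 genes, 1 passed the threshold of an adjusted p below 0.05 (0.00739%) by limma with Benjamini-Hochberg adjustment. It was Gm45837, and it was lower in the knockout. It is a transcript model on chromosome 7 of GRCm38 (mm10), chr7:101410886-101512819 on the plus strand, whose 32 exons run from the last part of Arap1 into Pde2a. Arap1 codes for a GTPase-activating protein, and Pde2a codes for a phosphodiesterase that breaks down cyclic AMP and cyclic GMP. The junction of exons 1 and 2 is shown because it is one of the few stretches by which reads of Gm45837 can be told from those of its neighbours. In GENCODE release M21, only 60 of the 4109 words of 31 bases in this transcript (1.46%) occur in no other gene, whereas 3927 occur in Pde2a and 122 in Arap1. The left exon, ending at chr7:101411069, is in lower case, and the right exon, starting at chr7:101451402, is in capitals.
Gm45837 junction: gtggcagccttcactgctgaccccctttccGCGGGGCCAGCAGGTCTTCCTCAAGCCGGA

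The log2(n + 1) of Gm45837 was 2.60, 2.43 and 2.28 in the wild-type libraries and 0.56 and 0.58 in the knockout libraries. The groups did not overlap, and the knockout libraries were nearly equal. The difference was -1.87 ± 0.21 (SE; 95% interval -2.32 to -1.41; adjusted p = 0.0373). In n, the values were 5.05, 4.39 and 3.87 against 0.47 and 0.50, so the gene was low in every library. The call rested on the spread estimated over both tissues. With the 5 tumor libraries alone the adjusted p was 0.691, and no gene of 13528 passed, while 294 had an unadjusted p below 0.05 (2.17%).

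Pde2a, examined after its values were seen, had the opposite pattern. Its log2(n + 1) was 2.22, 1.25 and 1.44 in wild type and 3.51 and 2.99 in the knockout. Both knockout libraries lay above all wild-type libraries, by 1.61 ± 0.44 on average (SE; adjusted p = 0.845). When the n of Gm45837 and Pde2a were added, log2(n + 1) became 3.28, 2.76 and 2.72 against 3.57 and 3.08, and the groups overlapped. Arap1 also overlapped, at 6.25, 6.70 and 6.48 in wild type and 6.37 and 6.86 in the knockout. In spleen, Gm45837 was between 3.72 and 4.53 in wild type and between 4.32 and 4.45 in the knockout, and Pde2a was between 2.94 and 3.73 and between 1.97 and 3.57. How the reads were divided between these overlapping models was not tested.

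**Figure D1:**
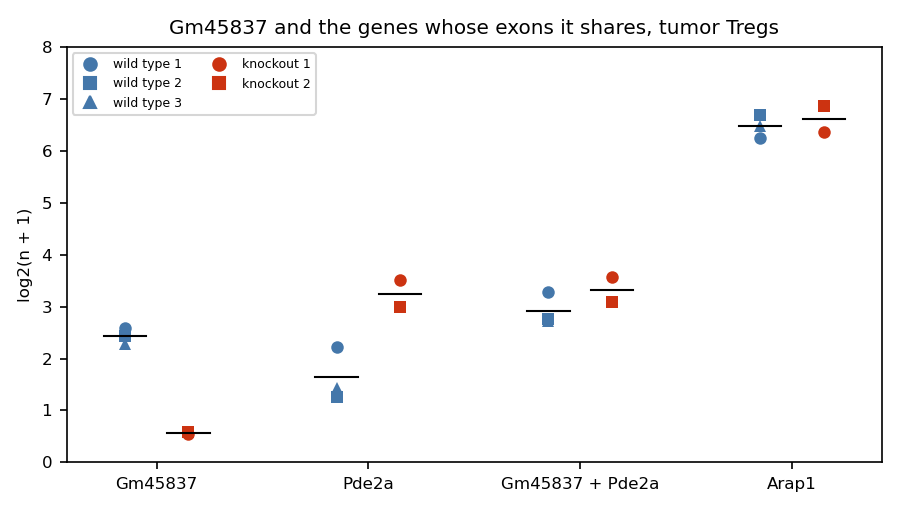
Level of Gm45837, of Pde2a, of both added together, and of Arap1, as log2(n + 1) on the vertical axis, in each of the 3 wild-type (blue) and 2 knockout (red) tumor libraries, with black bars at the group means. Gm45837 is separated downward and Pde2a upward in the knockout, and the points overlap once both are added.

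The libraries did not sort by genotype. Over all tested genes, the root mean square difference in log2(n + 1) was smallest between wild type 3 and knockout 2 (0.334), and wild type 1 was nearer to knockout 1 (0.372) than to either wild-type library. The knockout libraries differed from each other by 0.492, and only 2 of the 10 pairs of libraries were farther apart. The median over genes of the residual SD was 0.213 in tumor and 0.144 in spleen, and the test pools both, so the spread it uses is smaller than that of the tumor libraries. On simulated data with this inequality, the pooled fit called unchanged genes more often than its threshold allows. Wild type 1 and knockout 1 stood apart in several gene groups given below. At this spread the median 95% interval reached 0.39 to either side of the difference. The interval lay within -1 and 1 for 11997 genes (88.7%), and for 8301 of the 8922 genes with a mean of at least 3 (93.0%). A difference of at least 1 was measured for 69 genes, 43 higher and 26 lower in the knockout.

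**Figure D2:**
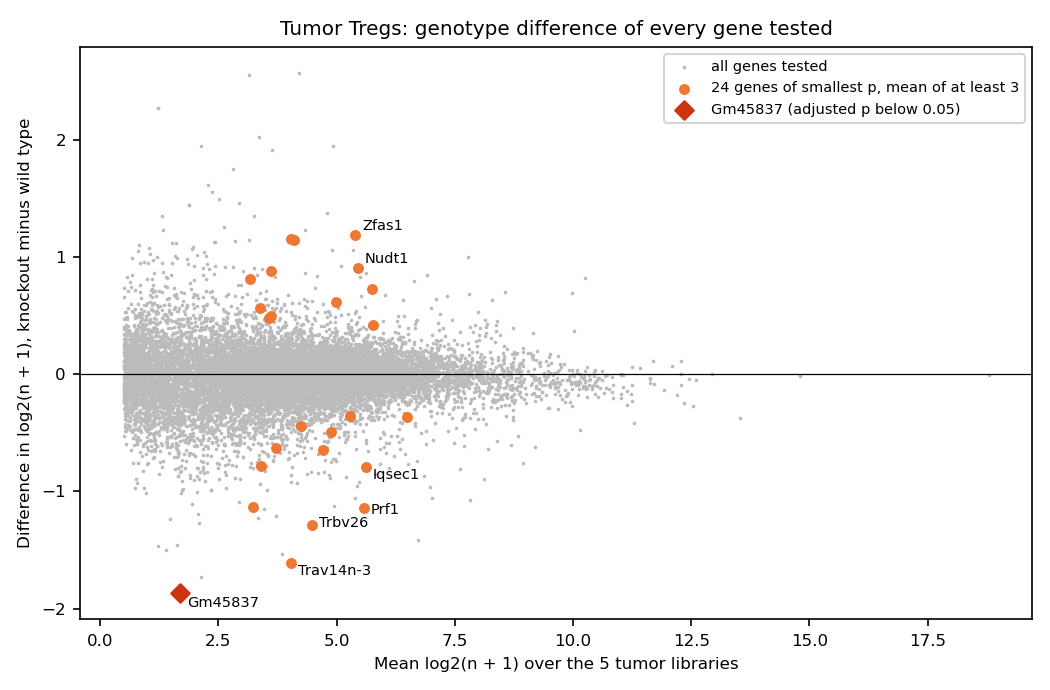
Each point is 1 of the 13528 genes, placed by its mean log2(n + 1) over the 5 tumor libraries (horizontal axis) and its difference between knockout and wild type (vertical axis). Gm45837 (diamond) is the gene that passed adjustment, and the 24 genes of smallest unadjusted p among genes with a mean of at least 3 (orange) lie among grey points of similar or larger difference.

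At an unadjusted p below 0.05, 291 genes were higher (2.15%) and 335 lower (2.48%) in the knockout, 626 in all (4.63%). The libraries did not overlap for 897 genes higher (6.63%) and 928 genes lower (6.86%). Genes are named below from the 12 of smallest unadjusted p in each direction, taken among non-overlapping genes with a mean of at least 3, and none of these 24 passed adjustment (adjusted p between 0.205 and 0.724). They were chosen for this contrast, so their values describe it and do not test it.

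Among those that were higher, Nudt1, which hydrolyses oxidised nucleotides, was at 5.24, 4.86 and 5.15 in wild type and 5.91 and 6.06 in the knockout, a difference of 0.90 ± 0.17 (SE). All knockout values lay above all wild-type values.

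Fastkd2, a mitochondrial RNA-binding protein, was at 2.61, 2.91 and 3.0 in wild type and 3.83 and 3.48 in the knockout. Zfas1, a non-coding host gene of small nucleolar RNAs, was at 5.36, 4.74 and 4.66 against 6.39 and 5.82, with wild type 1 nearest to the knockout libraries. Gpr55, a receptor for lysophosphatidylinositol, was at 3.56, 3.14 and 3.10 against 4.29 and 4.01. Further protein-coding genes of this group were Tdrd3, a Tudor-domain partner of a topoisomerase, Psen2, a catalytic subunit of gamma-secretase, the p53-induced Trp53inp1, the tubulin glutamylase gene Ttll5, the GTPase gene Arl5c, and Gm14391, with differences between 0.42 and 0.73. The pseudogene Gm2260 differed by 1.14, but all 627 of its 31-base words also occur in another gene, most often Anxa11, so its value is uncertain.

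Among those that were lower, Prf1 codes for perforin, the pore-forming protein of cytotoxic granules. Its log2(n + 1) was 6.21, 6.04 and 5.85 in wild type and 5.25 and 4.53 in the knockout, a difference of -1.14 ± 0.25 (SE). Iqsec1, an exchange factor for Arf GTPases, was at 5.83, 6.11 and 5.88 against 5.26 and 5.03, a difference of -0.79 ± 0.12. In both, every knockout value lay below every wild-type value. Myo18a, an unconventional myosin, was at 5.06, 5.14 and 5.02 against 4.58 and 4.58, with little spread in either group.

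Ube4b, a ubiquitin ligase, was at 5.47, 5.41 and 5.39 in wild type and 5.05 and 5.08 in the knockout. Pi16, a secreted peptidase inhibitor, was at 3.49, 3.90 and 3.76 against 3.03 and 2.83. Edf1, a transcriptional coactivator, Ccdc130, and Ier5l, of the immediate-early response family, differed by -0.37, -0.63 and -0.65. Mfap1b, of a spliceosome protein, differed by -0.44, but only 33.6% of its words are absent from other genes. Its near copy Mfap1a lay the other way, at 3.74, 3.93 and 3.91 against 3.97 and 4.10, without overlap. How the reads were divided between these copies was not tested. The pseudogene Gm21596 differed by -1.14, and 10.3% of its words are absent from other genes, most being shared with Hmgb1.

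**Figure D3:**
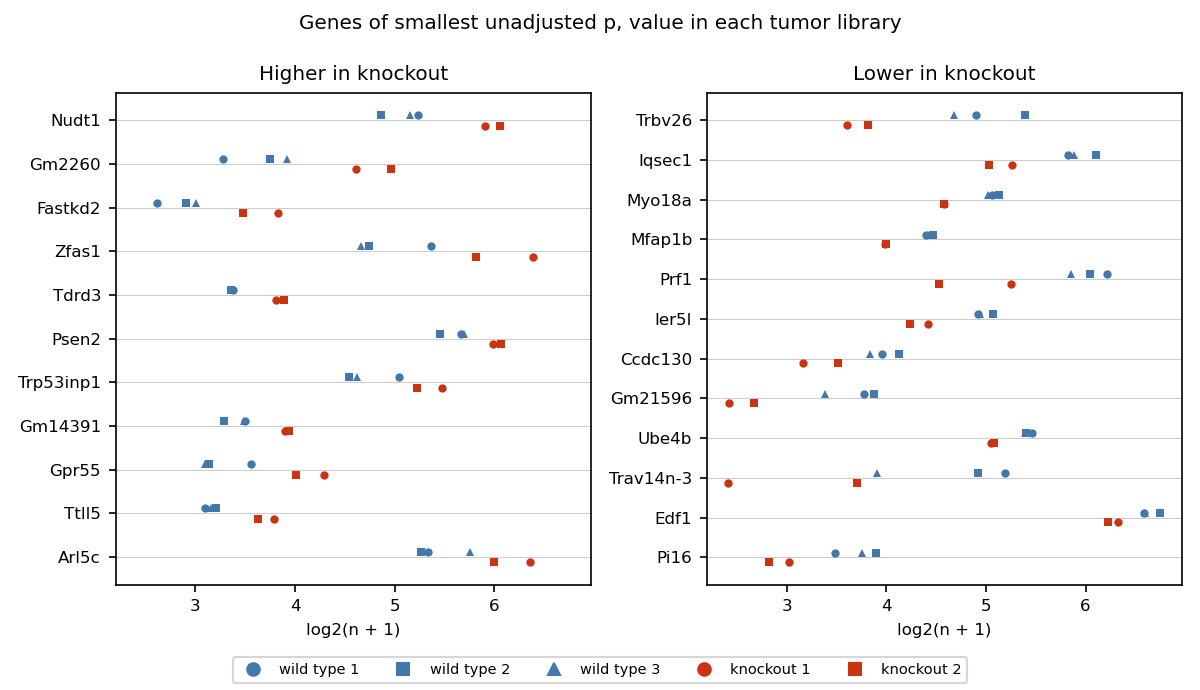
Value of 23 of the 24 genes of smallest unadjusted p in every tumor library, with log2(n + 1) on the horizontal axis, wild-type libraries in blue and knockout libraries in red. In the left panel all red points lie to the right of the blue points, and in the right panel to the left, as the rule for choosing these genes required.

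Abundant genes were named by the size of the difference. Among genes with a mean of at least 7 and no overlap, those with the largest differences downward were Slc7a2, a transporter of cationic amino acids (-1.05 ± 0.29, SE), the chemokine gene Ccl5 (-0.89 ± 0.39), Gm1821 (-0.56), mt-Nd4l (-0.49) and Pdcd1, which codes for the checkpoint receptor PD-1 (-0.41 ± 0.36). Ccl5 was at 8.85, 8.51 and 8.08 in wild type and 7.81 and 7.36 in the knockout. Slc7a2 was at 6.71, 7.65 and 7.94 against 6.63 and 6.14, so wild type 1 and knockout 1 nearly met. Pdcd1 was at 7.21, 7.24 and 7.28 against 7.11 and 6.55, so most of its difference came from knockout 2. Those with the largest differences upward were Cd83, a surface protein of activated lymphocytes and dendritic cells (0.53 ± 0.25), Plau, the urokinase gene (0.46 ± 0.31), and the ribosomal pseudogenes Rps16-ps2 (0.40), Rps6-ps4 (0.39) and Rpl15-ps3 (0.33), which hold no word of their own. Only 1.12% of the words of mt-Nd4l and 8.94% of those of Gm1821 are absent from other genes. All 10 had adjusted p of at least 0.845.

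The partners of CD177 were examined next. Itgb2, the beta-2 integrin chain shared by LFA-1 and Mac-1, was at 8.40, 8.70 and 8.68 in wild type and 8.38 and 8.26 in the knockout. The groups did not overlap, although wild type 1 and knockout 1 were almost equal, and the difference was -0.27 ± 0.10 (SE; adjusted p = 0.999). Itgam, the alpha chain of Mac-1, was between 7.30 and 7.87 in wild type and at 7.53 and 7.86 in the knockout. Pecam1 was between 4.07 and 4.68 against 4.22 and 4.20, and F2rl1, the protease-activated receptor 2 gene, was between 2.40 and 2.68 against 2.55 and 3.20. These 3 overlapped, and Prtn3, the gene of proteinase 3, is not listed.

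Cd177 lies at chr7:24743983-24760311 on the minus strand. Of the 40 annotated protein-coding neighbours within 500 kb, 27 are listed and 25 were tested. None passed adjustment, 3 had an unadjusted p below 0.05, all higher (2.15% of all genes), and the median difference was 0.00. The libraries did not overlap for 3 that were higher (6.63% of all genes) and 4 that were lower (6.86%). Pou2f2, the OCT2 transcription factor gene, was at 2.42, 2.29 and 2.51 in wild type and 2.81 and 2.82 in the knockout (difference 0.41 ± 0.12, SE). Zfp94 and Smg9, a nonsense-mediated decay factor, differed by 0.54 and 0.25. Around Foxp3, at chrX:7573644-7595245 on the plus strand, the locus that drives Cre-YFP, 22 of 32 neighbours were tested with a median difference of -0.05. There, the libraries did not overlap for 2 that were higher (6.63% of all genes) and 2 that were lower (6.86%). Among them, Ppp1r3f was higher by 0.68 and Pqbp1 lower by 0.29 (-0.29 ± 0.12, SE), neither past adjustment. Only 47.8% of the words of Ppp1r3f are absent from other genes.

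Genes of Treg identity were on the whole higher in the knockout libraries, though none passed adjustment (all with a limma adjusted p of 0.999). Of the 18 genes of this list, 14 had a difference above 0, 5 had an unadjusted p below 0.05, all higher, against 2.15% of all genes, and 6 did not overlap, all higher, against 6.63%. The median difference was 0.29, against -0.01 over all genes tested. Foxp3 was at 5.54, 4.72 and 5.24 in wild type and 5.87 and 6.12 in the knockout. Both knockout libraries lay above the wild-type libraries, by 0.83 ± 0.26 on average (SE; 95% interval 0.25 to 1.41). The part of the Cre-YFP construct in this difference was not tested.

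Il2ra, the CD25 gene used in the sort, was at 6.79, 6.51 and 7.01 in wild type and 7.51 and 7.15 in the knockout, a difference of 0.56 ± 0.18 (SE). Ikzf2, which codes for the Treg transcription factor Helios, was at 6.52, 5.78 and 6.14 against 6.98 and 6.57, a difference of 0.63 ± 0.20. Neither gene overlapped between the groups, although knockout 2 was only just above wild type 1 for Ikzf2. Swap70, a regulator of the actin cytoskeleton, was at 4.43, 4.54 and 4.56 against 4.83 and 5.02. Il10, the gene of the suppressive cytokine interleukin 10, was at 5.52, 5.80 and 5.91 against 6.34 and 6.50, a difference of 0.67 ± 0.42. The groups did not overlap for either gene.

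Other members overlapped. Itgae, which codes for the CD103 integrin chain, was at 4.83, 2.66 and 4.02 in wild type and 5.63 and 4.51 in the knockout, with the widest spread of the list. Lrrc32, the carrier of latent TGF-beta on Tregs, was at 5.50, 4.98 and 5.21 against 5.99 and 5.32. Ctla4, the inhibitory receptor central to Treg suppression, was at 8.90, 8.41 and 8.66 against 9.12 and 8.53, and Tgfb1, the TGF-beta gene itself, was at 7.50, 7.65 and 7.71 against 7.66 and 7.56. For Itgae, Lrrc32 and Ctla4, knockout 1 was above all wild-type libraries and knockout 2 among them, and for Tgfb1 both were among them.

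The share of T-cell RNA moved with individual libraries and not with genotype. The log2 of the summed n of 20 T-cell lineage genes was 12.02 in wild type 1 and 11.77 in knockout 1, against 11.24, 11.43 and 11.16 in wild type 2, wild type 3 and knockout 2, and all 20 genes overlapped. The log2 value of Foxp3 minus that of Cd4, taken within each library, was -2.19, -2.49 and -1.99 in wild type and -1.39 and -0.95 in the knockout. The knockout libraries were the highest on this measure, which was chosen after the values were seen and compares libraries, not the levels of both genes. With knockout 1 left out, 2 of the 18 genes had an unadjusted p below 0.05 (5.99% of all genes) and the median difference was 0.07. With knockout 2 left out there were 6 genes (11.8% of all genes) and a median of 0.44, and with wild type 1 left out 7 genes (9.16%) and a median of 0.38.

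**Figure D4:**
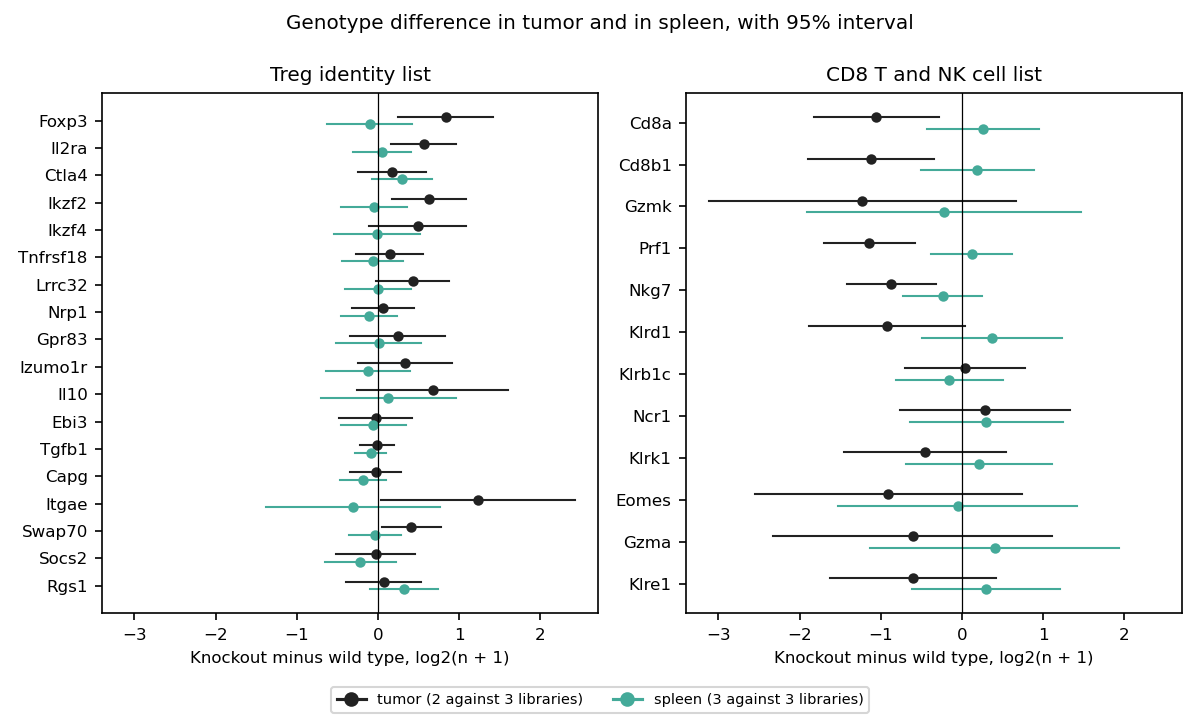
Difference between knockout and wild type in log2(n + 1), with its 95% interval, for each gene of the Treg identity list (left) and of the CD8 T and NK cell list (right), in tumor (black, 2 against 3 libraries) and spleen (green, 3 against 3 libraries). In tumor Foxp3, Il2ra and Ikzf2 lie above 0 and Cd8a, Cd8b1, Prf1 and Nkg7 below 0 with intervals that leave out 0, whereas every spleen interval shown includes 0.

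Genes of the tumor effector Treg state differed little. Of 24 tested, 18 had a difference above 0 and 6 below, with a median of 0.09. An unadjusted p below 0.05 was found for 2, both higher (2.15% of all genes), and the libraries did not overlap for 2 that were higher (6.63% of all genes) and 3 that were lower (6.86%). Ccr8, a chemokine receptor gene typical of TI-Tregs, was at 6.65, 6.02 and 6.72 in wild type and 6.68 and 6.62 in the knockout. Tnfrsf9, the 4-1BB gene, was at 8.60, 8.97 and 9.04 against 9.16 and 8.78, and Entpd1, which codes for the ATP-degrading CD39, was at 7.50, 8.0 and 7.66 against 7.45 and 7.88. In all 3 the groups overlapped.

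Nt5e codes for CD73, which completes the formation of adenosine after CD39. It was at 5.26, 5.12 and 5.37 in wild type and 5.89 and 5.50 in the knockout, without overlap (difference 0.45 ± 0.18, SE). Lag3, an inhibitory receptor gene, was the member with the clearest separation downward, at 6.55, 6.43 and 6.50 against 5.73 and 5.86. Its difference was -0.70 ± 0.32 (SE; adjusted p = 0.999) with the spread of both tissues. Its unadjusted limma p was 0.0524, or 0.000953 with the tumor libraries alone. In the fit of the tumor libraries alone, no gene passed adjustment. The smallest adjusted p of any gene there was 0.691 (limma, Benjamini-Hochberg). Havcr2, the TIM-3 gene, also lay lower, at 5.86, 5.89 and 5.95 against 5.69 and 5.63. These 2 and Pdcd1 are the non-overlapping lower members, and all 3 are inhibitory receptors that exhausted CD8 T cells also express.

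Receptors that guide migration tended to be higher. Of 19 chemokine and related receptor genes, 17 had a difference above 0, 4 had an unadjusted p below 0.05, all higher (2.15% of all genes), and 3 did not overlap, all higher (6.63% of all genes), with a median difference of 0.32. Ccr7, the lymph-node homing receptor gene, was at 6.53, 6.51 and 6.43 in wild type and 7.24 and 6.61 in the knockout (0.43 ± 0.15, SE). S1pr1, which lets T cells leave lymphoid tissue, was at 4.32, 3.44 and 3.37 against 4.79 and 3.98, and Cxcr3, a receptor for interferon-induced chemokines, was at 5.24, 4.26 and 4.79 against 5.29 and 5.22. These values were highest in knockout 1, and the groups overlapped for S1pr1 and Cxcr3. Without knockout 1, no member had an unadjusted p below 0.05 in the higher direction and the median difference was 0.07.

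Genes of T-cell quiescence and lymphoid homing had a median difference of 0.03. Of 19 tested, 11 were above 0, and 3 had an unadjusted p below 0.05, all higher (2.15% of all genes), Ccr7 and S1pr1 among them. Tcf7, a transcription factor gene of naive and memory T cells, was at 4.66, 3.68 and 3.86 in wild type and 4.36 and 3.37 in the knockout. Klf2, which controls S1pr1, was at 6.77, 7.07 and 6.92 against 6.50 and 6.89. Both overlapped.

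Among 18 genes of integrins and adhesion molecules, 3 were higher (2.15% of all genes) and 1 lower (2.48% of all genes) at an unadjusted p below 0.05, with a median difference of 0.02. Itgb8, whose product activates latent TGF-beta, was at 3.82, 3.57 and 3.57 in wild type and 4.30 and 4.19 in the knockout, without overlap (0.60 ± 0.22, SE). Itga6 was at 5.44, 4.81 and 5.31 against 5.37 and 6.08, and only knockout 2 lay above wild type. The other 2 of the 4 were Itgae and Itgb2, given above.

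Genes of CD8 T and NK cells were lower in the knockout libraries. Of 12 tested, 10 had a difference below 0, 4 had an unadjusted p below 0.05, all lower, against 2.48% of all genes, and 6 did not overlap, all lower, against 6.86%. The median difference was -0.89, and none passed adjustment. Cd8a, the CD8 alpha chain gene, was at 5.98, 5.63 and 5.85 in wild type and 5.46 and 4.07 in the knockout (-1.06 ± 0.35, SE). Cd8b1, its partner chain, was at 5.58, 5.05 and 5.56 against 5.0 and 3.55 (-1.12 ± 0.35). For both, knockout 2 was far below the rest, and knockout 1 just below the lowest wild-type library.

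Nkg7, a cytotoxic granule protein gene, was at 7.57, 7.05 and 6.96 in wild type and 6.71 and 5.94 in the knockout. Klrd1, which codes for CD94, was at 5.75, 5.87 and 5.94 against 5.55 and 4.31. Gzmb, the granzyme B gene, which activated Tregs also express, was at 7.87, 7.95 and 7.29 against 8.20 and 7.04. Gzmb thus overlapped, and its 2 knockout libraries were the highest and the lowest. Cd8a and Cd8b1 are not genes of the sorted CD4+ cells, and the log2 summed level of the list was 9.13, 8.65 and 8.65 in wild type and 8.41 and 7.30 in the knockout. The part of CD8 T and NK cell RNA in the differences of Prf1, Lag3, Pdcd1 and Ccl5 was not tested.

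Within a library, the log2 value of Cd8a minus that of Cd4 was -1.74, -1.58 and -1.38 in wild type and -1.80 and -3.0 in the knockout, so knockout 1 was close to wild type 1 on this measure. Without knockout 2, 1 of the 12 genes had an unadjusted p below 0.05 (11.8% of all genes) and the median difference was -0.28. Without knockout 1, the values were 6 genes (5.99% of all genes) and -1.38.

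Cytokine genes of conventional T cells followed the same direction, with 9 of 11 below 0 and a median difference of -0.38. Il21, a cytokine gene of helper T cells, was at 3.19, 3.0 and 2.29 in wild type and 1.64 and 0.54 in the knockout, without overlap (-1.73 ± 0.47, SE; adjusted p = 0.845). Ifng, the interferon gamma gene, was at 7.52, 6.18 and 5.58 against 6.36 and 4.88, and Il2 was at 1.90, 1.04 and 1.80 against 1.42 and 1.03. Ifng overlapped, being highest in wild type 1. Il2 was low in every library. Without knockout 2, 6 of the 11 were below 0 and the median was -0.02.

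**Figure D5:**
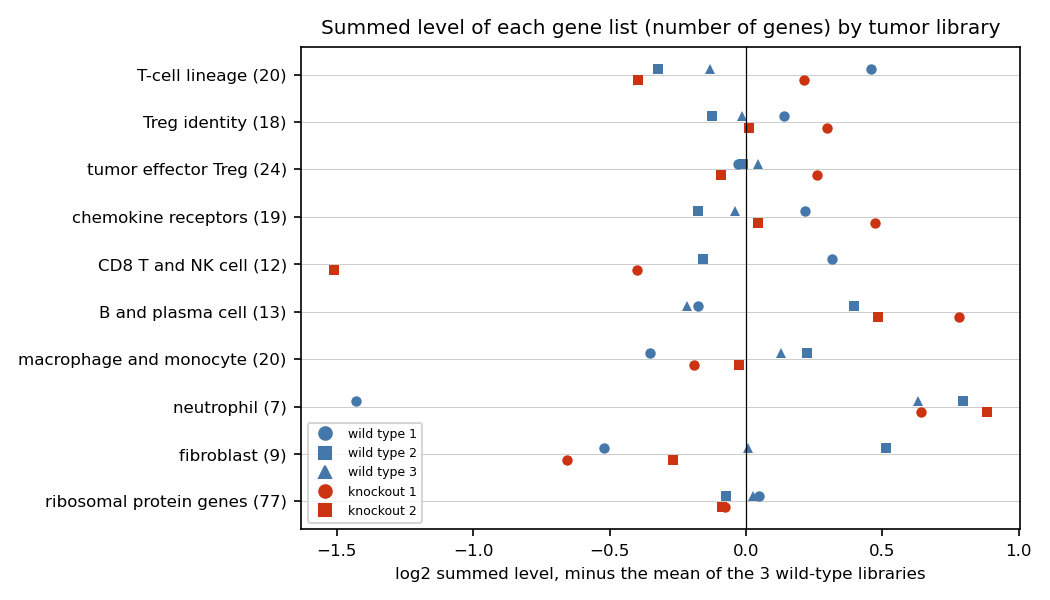
Log2 of the summed n of each gene list (with its number of genes) in every tumor library, minus the mean of the 3 wild-type libraries. Knockout 2 lies far to the left for the CD8 T and NK cell list, wild type 1 for the neutrophil list, and wild type 1 and knockout 1 lie together to the right for the T-cell lineage list.

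Segments of the T cell receptor differed one by one, in both directions. Of 74 variable segments tested, 5 were higher (2.15% of all genes) and 4 lower (2.48% of all genes) at an unadjusted p below 0.05, and the median difference was 0.11. Trbv26 was at 4.90, 5.39 and 4.68 in wild type and 3.60 and 3.81 in the knockout (-1.28 ± 0.18, SE; adjusted p = 0.205), and all of its words are absent from other genes. Trbv14 was at 2.98, 2.53 and 1.55 against 3.81 and 3.81 (1.46), and Trbv2 at 3.84, 4.10 and 3.49 against 3.28 and 2.77 (-0.78). None of the 3 overlapped. Of the 74 segments, the libraries did not overlap for 4 that were higher (6.63% of all genes) and 4 that were lower (6.86%). Trav14n-3 was at 5.19, 4.92 and 3.91 against 2.42 and 3.71, and 40.8% of its words are absent from other genes. Most of its difference of -1.61 came from knockout 1.

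The BCL-2 family, which sets the threshold for apoptosis, showed no shift. Of 24 genes tested, 12 were above and 12 below 0, and the median difference was -0.00. Bcl2l1, the gene of BCL-XL, was at 6.67, 6.71 and 6.86 in wild type and 6.63 and 6.72 in the knockout. The difference was -0.07 with a 95% interval of -0.35 to 0.20. Mcl1 was at 8.43, 9.02 and 9.05 against 8.81 and 8.91, and overlapped. Bcl2 was at 4.03, 4.05 and 3.78 against 3.79 and 3.05, a difference of -0.53 ± 0.20 (SE; adjusted p = 0.999), and only knockout 2 lay below the wild-type libraries.

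Several other programs had a median difference near 0. All 27 genes of hypoxia and glycolysis overlapped, with a median difference of -0.02. Of 30 interferon-stimulated genes, 26 overlapped and 4 were higher without overlap (6.63% of all genes), with a median of 0.05. An unadjusted p below 0.05 was found for 2, both higher (2.15% of all genes). They were Ifit1 and Ifit2, which bind viral RNA, with differences of 0.50 and 0.35. Of 30 cell cycle genes, 22 were below 0 with a median of -0.08, and 2 were higher without overlap (6.63% of all genes). Mki67, the proliferation marker gene, was at 5.63, 5.53 and 5.87 in wild type and 5.28 and 5.84 in the knockout. Knockout 1 was lowest and knockout 2 lay among the wild-type libraries. Tk1, a thymidine kinase gene, was at 5.41, 5.27 and 5.64 against 5.65 and 5.81. It was the 1 cell cycle gene with an unadjusted p below 0.05, and it was higher (2.15% of all genes).

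Early activation genes lay lower in 15 of 21 cases, with a median of -0.17, and followed libraries more than genotype. Egr1 was at 7.32, 9.03 and 9.04 in wild type and 7.35 and 8.31 in the knockout. Wild type 1 and knockout 1 were thus equally low. Of the 21 genes, 2 did not overlap, Jun and Junb, both lower (6.86% of all genes). Junb was at 10.38, 10.60 and 10.61 against 10.37 and 10.36.

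Of 77 ribosomal protein genes, 65 were below 0 and 24 did not overlap, all lower (6.86% of all genes), but the median difference was -0.08. With quantile normalization 42 of 77 were below 0 and the median was -0.01. With median centring 63 were below 0 (median -0.06), and with equal library totals 56 (median -0.04). The size of this small shift thus differed between scalings. Of 62 histone genes 61 overlapped, and of 13 mitochondrial transcripts 12 overlapped.

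Markers of other cells moved with single libraries in some lists and with genotype in others. The macrophage and monocyte list overlapped in all 20 genes, with a median difference of -0.01 and a log2 summed level of 13.88, 14.46 and 14.36 in wild type and 14.05 and 14.21 in the knockout. In spleen this level was between 8.36 and 9.24. Of the neutrophil list, 8 of 20 genes are listed and 7 were tested. The defining S100a8, S100a9, Ly6g and Elane are not listed, and Mpo was below the filter. Il1b was at 8.43 in wild type 1 and between 10.61 and 10.87 in the other 4 tumor libraries. Of the 7 tested, 3 had a difference above 0 and 4 below, with a median of -0.004. The largest difference upward was that of Ltf, a neutrophil granule gene. It was at 2.39, 0.89 and 1.68 in wild type and 2.67 and 2.66 in the knockout (1.01 ± 0.39, SE).

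Genes of B and plasma cells lay higher in 11 of 13 cases, with a median of 0.53, and the libraries did not overlap for 3 that were higher (6.63% of all genes) and 1 that was lower (6.86%). Their log2 summed level was 6.91, 7.48 and 6.87 in wild type and 7.87 and 7.57 in the knockout, so both knockout libraries were above all wild-type libraries. Ighm, the IgM heavy chain gene, was at 5.37, 4.78 and 4.65 in wild type and 5.91 and 6.07 in the knockout, without overlap (1.06 ± 0.27, SE; adjusted p = 0.724). The defining Cd79a was at 0.64, 0.49 and 0.10 against 1.89 and 0.13, so it was high in knockout 1 alone. The median difference of the list was 0.35 without knockout 1, 0.98 without knockout 2, 0.57 without wild type 1 and 0.07 without both tumor libraries numbered 1. Hba-a2, a haemoglobin gene, was at 4.35, 2.48 and 1.80 against 5.39 and 4.18, and all 9 erythroid and platelet genes overlapped. All 9 fibroblast genes, all 5 tumor epithelial genes, 11 of 12 dendritic cell genes and 6 of 7 endothelial genes overlapped too. The part of these other cells in the genotype differences was not tested.

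The Y-linked genes Ddx3y, Uty, Kdm5d and Eif2s3y were above 0 in all 5 tumor libraries. Uty was at 3.73, 3.59 and 3.85 in wild type and 4.50 and 4.03 in the knockout, and Eif2s3y was at 4.65, 4.91 and 4.25 against 5.09 and 5.20, both without overlap. Ddx3y was at 5.06, 5.10 and 5.15 against 5.58 and 5.13, and Kdm5d was at 3.13, 3.19 and 3.20 against 3.48 and 3.03. Knockout 1 was the highest for 3 of the 4 genes.

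Tregs of the spleen showed no called gene by genotype (limma, Benjamini-Hochberg), and 260 genes had an unadjusted p below 0.05 (1.92%). The difference between tissues was tested as an interaction. No gene passed (limma, Benjamini-Hochberg), and 371 had an unadjusted p below 0.05 (2.74%). For Gm45837 the interaction was -2.11 ± 0.28 (SE; adjusted p = 0.180), with a spleen difference of 0.24. For Foxp3 it was 0.94 ± 0.35 and for Cd8a -1.31 ± 0.47 (SE), and neither passed adjustment.

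The median spleen difference was -0.06 over the Treg identity genes, 0.20 over the CD8 T and NK cell genes and 0.09 over the chemokine receptor genes, beside 0.29, -0.89 and 0.32 in tumor. Of the 24 genes of smallest p in tumor, 13 had a spleen difference of the same sign, against 7296 of the 13528 genes, and 2 had an unadjusted p below 0.05 in spleen.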

How the data were processed

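The members and gene lists of this comparison were chosen with earlier results of these data known. TI-Tregs and spleen Tregs (live CD4+GITR+CD25+ by the study's methods; purity not given) were sorted from MC38-bearing mice, and 11 libraries were grouped by the tissue and genotype labels. The authors depleted ribosomal RNA, sequenced single-end reads, pseudoaligned them with kallisto (version not given in the sources used here) to mm10, summed estimated counts by gene symbol with sleuth 0.30.0 and deposited log2(n + 1) values. The study's methods state an approximate number of reads per library, but not how n was scaled from them. The totals of n were between 1103159 and 1304548 in the tumor libraries, far below that number, so the reads behind each value are unknown and no counting interval is given. The pseudogene Gm12896 took between 31.4% and 41.3% of these totals.

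No count model was fitted. limma 3.58.1 in R 4.3.3 (lmFit, eBayes with a mean-variance trend) fitted 4 group means to all 11 libraries on the deposited log2 values, without further normalization, for genes with a mean of at least 0.5 over the 5 tumor libraries (1076 were removed). A gene was called where its p, adjusted by Benjamini-Hochberg over all genes tested, was below 0.05. For low genes, log2(n + 1) gives smaller differences than a fold of n would. An exact permutation test of 2 against 3 libraries cannot give p below 0.1, so none is reported for single values. Named genes were the called genes, the 12 per direction of smallest p with a mean of at least 3 and no overlap, the 5 per direction of largest difference with a mean of at least 7 and no overlap, the partners and neighbours of Cd177 and Foxp3, 4 Y-linked genes and list members. A gene that this rule names is not reported here. Positions, transcripts and sequence came from GENCODE M21 on GRCm38, where 14521 symbols were found once. The fit was tested on simulated data, where it recovered large changes but, with tumor spread above that of spleen, called unchanged genes more often than the threshold allows.

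Same-numbered libraries were taken as unpaired. Deviations from the group means correlated at 0.454 and 0.282 between wild-type and knockout tumor libraries of the same number. Wild type 3 with knockout 2, of different number, gave 0.289. With 2 knockout libraries, each such value has an equal and opposite value with the other knockout library. In spleen the same-number values were -0.199, 0.039 and -0.046. Between spleen and tumor libraries of the same genotype and number, the values lay between -0.128 and 0.034. Alternatives changed the scaling, the pseudocount, the filter, the variance model, the block and the libraries used.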

Additional observations from a re-analysis of the deposited data

How the results depend on the processing

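Gm45837 was the gene called in 6 of the alternatives that used all libraries: equal library totals, pseudocount 0.1, a filter over all 11 libraries, no trend, robust eBayes and a block by mouse. The count fell to 0 with the tumor libraries alone, quantile normalization, median centring, pseudocount 5, no filter, a mean of at least 3 (which removes Gm45837), array weights by group and a replicate block. Its difference was negative throughout (-0.78 with pseudocount 5 to -2.95 with pseudocount 0.1), with adjusted p from 0.00132 to 0.861. Leaving out 1 library gave between 0 and 2 called genes. The count was 0 without any 1 of the 3 wild-type tumor libraries (adjusted p of Gm45837 0.0996, 0.132 and 0.0722), without knockout 2 (0.152), and without wild-type spleen 3 or any 1 of the knockout spleen libraries. It was 2 without knockout 1, where Arap2 and Ms4a4b passed and Gm45837 did not (0.149). With 1 knockout library left, the fit takes its spread from the other groups. The number of genes with an unadjusted p below 0.05 was 1601 without knockout 2 and 1239 without wild type 1, against 626 with all, and 208 with array weights. The interaction count was 0 in all alternatives but pseudocount 0.1 and the fit without wild-type spleen 2, with 1 gene each (Gm45837), so leaving out 1 library gave between 0 and 1.

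Added after seeing the data, the replicate block within the tumor libraries alone called 1 gene, Gm12191 and not Gm45837 (adjusted p 0.414). The macrophage level as a covariate called 0, and leaving out both tumor libraries numbered 1 called 0 (adjusted p of Gm45837 0.486 and 0.132), with 1031 genes at an unadjusted p below 0.05 in the latter. Without those libraries, 1 knockout tumor library was left. The median difference was then 0.16 over the 18 Treg identity genes and -1.14 over the 12 CD8 T and NK cell genes. The block on replicate numbers over all 11 libraries gave 0 called genes and 623 at an unadjusted p below 0.05, and an adjusted p of 0.283 for Gm45837. The labels tie no number to a mouse or batch. All 73 single genes examined kept their direction in every alternative in which they were tested. Part of this was fixed in advance. For genes chosen for not overlapping, leaving out 1 tumor library cannot reverse the direction. Leaving out a spleen library does not change any tumor difference. The scalings tried moved the median difference over all genes between -0.01 and 0.02.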
